A study of Mus musculus with 4 samples.

Results

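The miRNAs described here are 7 mature miRNAs best known from leukocytes, endothelium and liver. They are mmu-miR-223-3p, mmu-miR-126a-3p, mmu-miR-126a-5p, mmu-miR-142a-3p, mmu-miR-142a-5p, mmu-miR-122-5p and mmu-miR-192-5p, taken by name from the 1881 mouse miRNAs of the array and written without the prefix from here on. 3T3-L1 cells are a mouse line of fibroblast-like preadipocytes that become adipocytes under hormonal induction, so the line itself holds no leukocytes, endothelial cells or hepatocytes. RNA of the exosome fraction, pelleted by ultracentrifugation from the conditioned medium, was read on 4 single-colour miRNA arrays, with 1 array per day. An array is a pool of independent cultures, whose number the study's methods and the labels state differently, and it is not a replicate.

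D0 was medium of undifferentiated cells in growth medium, a low-glucose DMEM. D4, D12 and D16 were media taken 4, 12 and 16 days after induction. Induction used differentiation medium-1, a high-glucose DMEM with 1-methyl-3-isobutylxanthine, dexamethasone and insulin. It was followed by differentiation medium-2, which held insulin alone of these agents. All of these media contained fetal bovine serum that had been depleted of exosomes by centrifugation, and penicillin with streptomycin.

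A miRNA guides a silencing complex to messenger RNAs, mostly through its seed, the short stretch near its 5′ end. miR-223 is abundant in myeloid cells and miR-142 across blood cell lineages. miR-126 lies within Egfl7, a gene of endothelial cells, miR-122 is the dominant miRNA of hepatocytes, and miR-192 is abundant in liver, gut and kidney epithelium. All of them have been measured in blood plasma or serum, which is why their signal in a culture of adipocytes bears on serum RNA in the medium.

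Of the 7 miRNAs, 5 were matched to mature sequences of RefSeq (GRCm38.p6), shown 5′ to 3′ because the seeds tell the miRNAs apart. Capitals mark the seed, bases 2 to 8.
miR-223-3p: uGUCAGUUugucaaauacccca
miR-126a-3p: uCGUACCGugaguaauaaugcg
miR-142a-3p: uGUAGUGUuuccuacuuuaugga
miR-142a-5p: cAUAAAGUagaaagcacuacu
miR-192-5p: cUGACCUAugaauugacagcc
miR-215-5p: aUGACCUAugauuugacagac

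No seed was shared among the 5. Among the other array miRNAs in the RefSeq table, only 1 had any of these seeds, namely miR-215-5p, which was identical to miR-192-5p at 18 of 21 positions. In this build miR-223-3p lies at chrX:96242884-96242905, inside the noncoding gene F630028O10Rik, and miR-126a-3p at chr2:26591402-26591423, inside Egfl7. The arms of miR-142a lie at chr11:87756903-87756925 (3p) and chr11:87756867-87756887 (5p), where Mir142b overlaps them, and miR-192-5p lies at chr19:6264857-6264877. All 5 are on the plus strand.

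The signal given for a miRNA is the total gene signal in intensity units. Only probes brighter than 3 times their own error enter this sum, and a miRNA with no such probe is called not detected. Each of the 7 miRNAs had 2 probes with 30 spots in all. Errors (±) are those of the scanning software and cover variation within an array. With 1 array per day they are not replicate errors, no test was made, and no difference between days has a replicate check. The D0 array, on which every bound over D0 rests, was the most uneven, with a standard deviation of 18.8 over its 1000 negative control spots against 4.02, 3.39 and 3.72 at D4, D12 and D16. Its detection limits for the 7 miRNAs, 4.91 to 5.01, were below those found for undetected members on the later days, 5.27 to 7.22. The D0 array was also dimmer, so its lower limits do not make it as sensitive as the others. For the 283 miRNAs detected on all 4 days the median signal was 12.1 at D0, and 30.8, 24.3 and 17.7 at D4, D12 and D16.

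None of the 7 miRNAs was detected at D0, where 17.5% of all miRNAs on the array were. At D4, 3 of the 7 were detected, against 22.6% of all miRNAs. At D12 it was 6 of 7 against 21.6%, and at D16 again 6 of 7 against 20.2%. Of the 210 single spots of the 7 miRNAs, 0, 35, 92 and 82 were well above background at D0, D4, D12 and D16. Over the spots of all miRNAs of the array it was 10.7%, 15.4%, 14.1% and 13.2%. The signal summed over the detected members was 34.5 (D4), 150.2 (D12) and 126.8 (D16), equal to 0.0881%, 0.485% and 0.580% of the signal of the array. Thus 6 of the 7 were detected only after induction, and 4 of the 6 remained dim. The later arrays were also brighter than the D0 array, and the part of this brightness in the detections was not tested. The higher share at D16 rested on miR-126a-3p, without which the members held 0.311% at D12 and 0.306% at D16. More vesicles and more of a miRNA per vesicle cannot be told apart in such fractions.

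**Figure D1:**
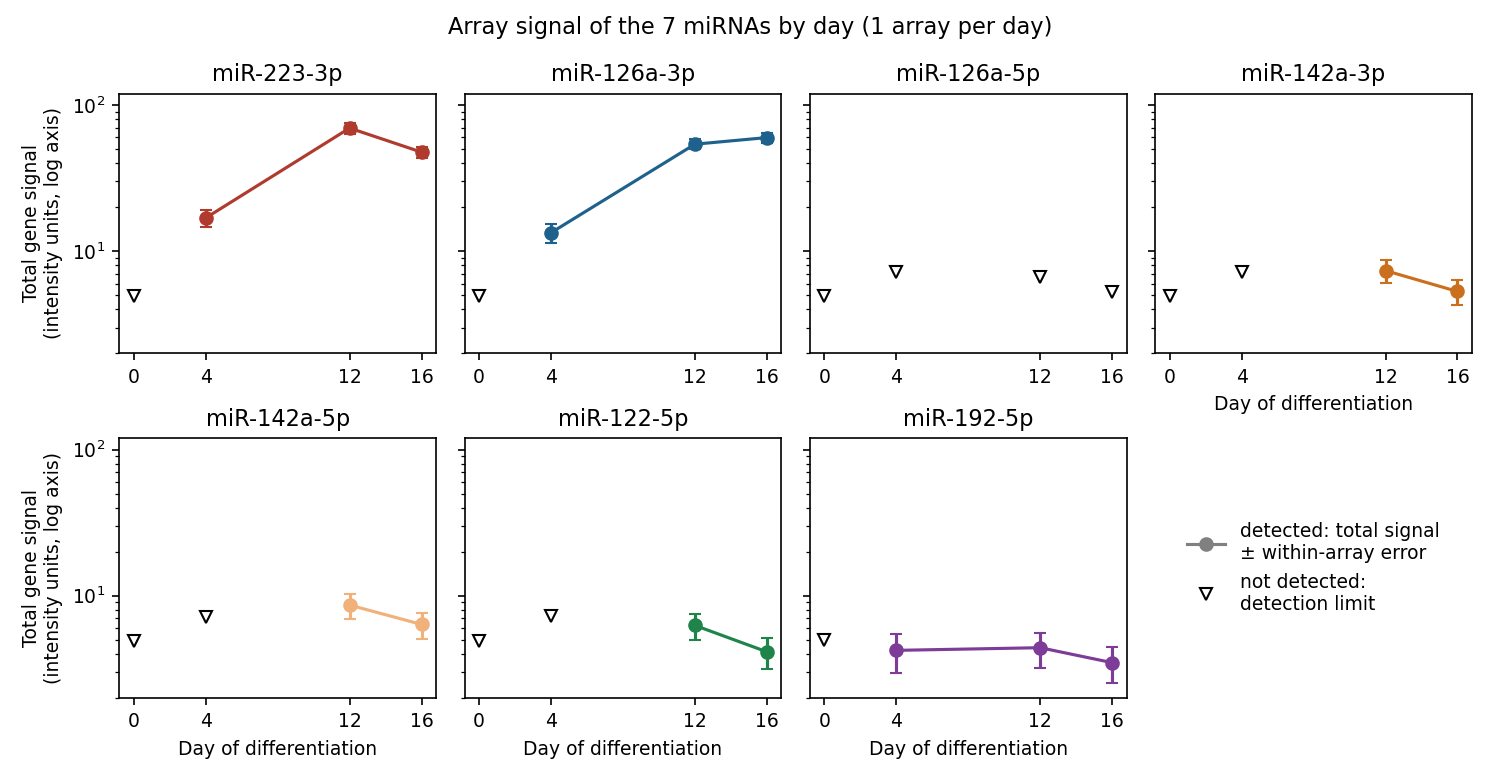
Total gene signal (intensity units, log axis) against day of differentiation for the 7 miRNAs, with 1 array per day. Filled points are detected signals with their within-array error and open triangles are detection limits, and miR-223-3p reaches 69.6 at D12 and miR-126a-3p 59.9 at D16, while miR-126a-5p has no detected point.

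The myeloid miR-223-3p had its highest signal at D12. It was not detected at D0, where a signal up to 4.95 could have been missed, and had a signal of 16.9 ± 2.15 (D4), 69.6 ± 5.94 (D12) and 47.6 ± 4.14 (D16). The unscaled D16 signal lay below that of D12 by more than the error of the difference, which was -22.0 ± 7.24. Relative to D0 the signal was at least 3.41-fold higher at D4, at least 14.0-fold higher at D12 and at least 9.61-fold higher at D16. The bounds at D12 and D16 fell to 4.27 and 4.25 when the arrays were scaled by the 75th percentile. The D4 bound was then not above 1, and with quantiles it was 1.12. The ratio after normexp background correction, which adds an offset to both days, was 2.79 at D12 and 2.56 at D16, so the size of the difference rested on the processing. From D4 to D12 the ratio was 4.12 ± 0.633, the third highest of the 374 miRNAs detected on both days, whose median ratio was 0.865. Its probes gave 3.37 and 4.37. From D12 to D16 the ratio was 0.684 ± 0.0833, near the median of 0.703 over 371 miRNAs. With the 75th percentile it was 0.994, so the size of this fall depended on the scaling.

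The endothelial miR-126a-3p differed from miR-223-3p in its last step. It was not detected at D0, with a limit of 4.91, and had a signal of 13.4 ± 1.94 (D4), 54.0 ± 4.20 (D12) and 59.9 ± 4.50 (D16). The unscaled values at D12 and D16 lay within their error of each other, with a difference of 5.94 and an error of 6.15, and both were above D4. Under scaling D16 was the higher, at 1.61 times D12 with the 75th percentile and 1.54 times with quantiles. Relative to D0 the signal was at least 2.72-fold higher at D4, at least 10.98-fold higher at D12 and at least 12.2-fold higher at D16. With the same changes of processing the D12 value was 3.34 and 2.48, and the D16 value 5.39 and 3.12. The D4 bound was not above 1 with the 75th percentile, the 90th percentile or quantiles. The ratio of D12 over D4 was 4.04 ± 0.666, rank 5 of 374, and was 1.83 after normexp correction, the only setting that put it below 2. The probes gave 4.26 and 3.90.

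From D12 to D16 only 16 of 371 miRNAs had an unscaled ratio above 1. With the 75th percentile it was 213. miR-126a-3p was among the 16, with a ratio of 1.11 ± 0.120 and rank 10. Over the whole span from D4 to D16 its ratio of 4.48 ± 0.734 was the highest of 356 miRNAs, whose median was 0.592, and miR-223-3p ranked 4 with 2.82 ± 0.436. These ratios were 2.30 and 1.87 after normexp correction, and 8.44 and 5.31 with the 75th percentile. A factor common to an array cancels when these 2 miRNAs are set against each other. The change of miR-126a-3p from D4 to D12 was 0.979 ± 0.221 times that of miR-223-3p, and from D12 to D16 it was 1.62 ± 0.264 times. The latter value was 1.61 to 1.65 over the 4 combinations of their probes. The pair thus moved alike from D4 to D12, within error, and unequally from D12 to D16.

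The other arm of the same hairpin, miR-126a-5p, was not detected on any day. Its detection limits were 4.92, 7.16, 6.60 and 5.27 at D0, D4, D12 and D16. The sum over both probes was 1.73 ± 1.69 (D4), 1.49 ± 1.56 (D12) and 1.32 ± 1.24 (D16), and 0 of its 30 spots were well above background on each of the 4 days. Different probes bind with different strength, so the arms give no ratio of abundance. The miR-126b arms, named for the opposite strand of the locus, were not detected on any day either.

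**Figure D2:**
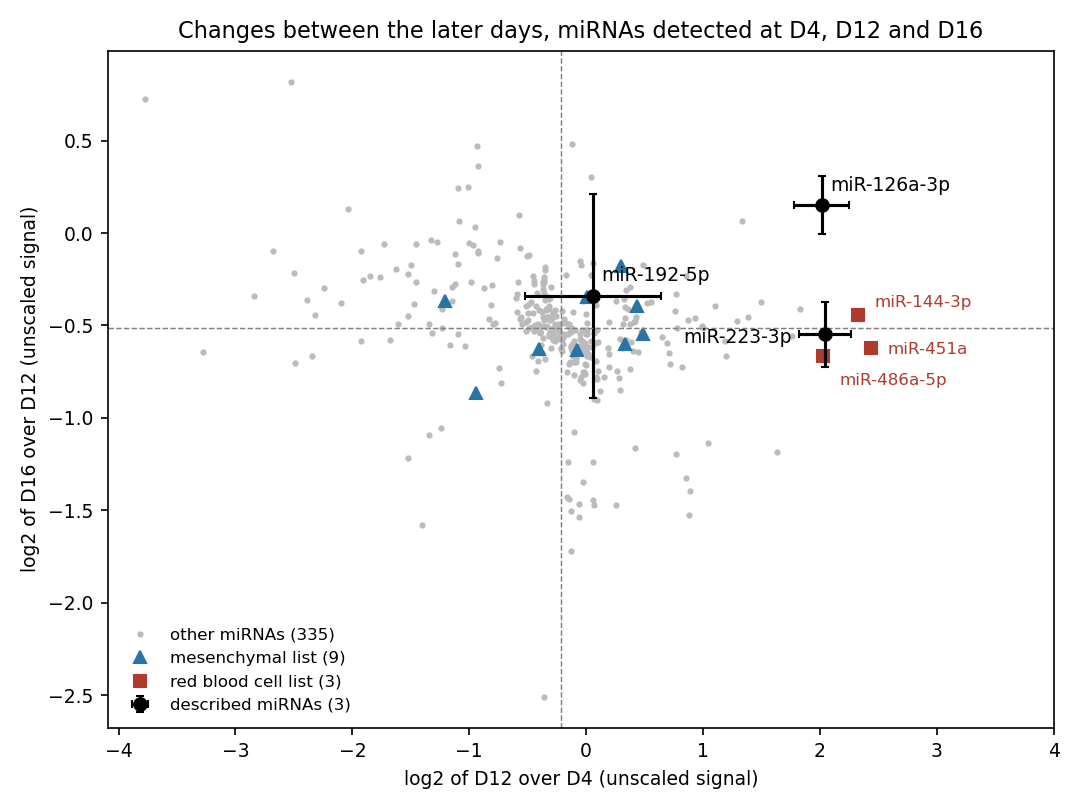
log2 of D16 over D12 against log2 of D12 over D4 (unscaled signals) for the miRNAs detected at D4, D12 and D16, with squares for red blood cell miRNAs, triangles for mesenchymal miRNAs, grey points for the others, dashed lines at the medians and within-array error bars on the described miRNAs. miR-126a-3p and miR-223-3p share an x value near 2.0 (2.01 and 2.04) but lie at 0.15 and -0.55 on the y axis, and 3 red blood cell miRNAs lie near miR-223-3p.

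The arms of the haematopoietic miR-142a came into the detected range only at D12, and both were dim. miR-142a-3p was not detected at D0 or D4 (limits 4.92 and 7.21) and had a signal of 7.36 ± 1.32 at D12 and 5.30 ± 1.02 at D16. This signal came from 1 of its 2 probes. The other probe stood at 1.83 ± 1.11 at D12 and was not detected. miR-142a-5p was not detected at D0 or D4 (limits 4.91 and 7.15) and had a signal of 8.63 ± 1.67 at D12 and 6.36 ± 1.32 at D16, with both probes detected.

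Against the D0 limits these signals gave bounds of at least 1.495-fold (miR-142a-3p) and at least 1.76-fold (miR-142a-5p) at D12. Scaling ended these bounds, with none above 1 for miR-142a-3p under any of the 4 scalings, and for miR-142a-5p only that with the spike-in RNAs, at 1.02. Summed over both probes, detected or not, miR-142a-3p was 8.41 ± 2.08 higher at D12 than at D0. For miR-142a-5p the same difference was 9.54 ± 2.03. Both unscaled differences were over 4 times their within-array error, although neither bound reached 2. Against D4 they were smaller, 5.72 ± 2.42 and 7.28 ± 2.37, and from D12 to D16 they were within or close to the error, at -2.22 ± 2.20 and -2.28 ± 2.13. The bounds of D12 over D4 were 1.02 (miR-142a-3p) and 1.21 (miR-142a-5p) unscaled, and 1.32 and 1.56 with the 75th percentile. With only the spots on the right side of the array, that of miR-142a-3p was not above 1. With only the probe detected at D12, the bound of miR-142a-3p over D0 was 2.99. Of the 30 spots of miR-142a-5p, 3 were well above background at D12, so its detection rested on averages of many weak spots. miR-142b, from the same locus, was not detected on any day.

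The hepatocyte miRNA miR-122-5p was likewise detected only at D12 and D16, by 1 of its 2 probes. Its signal was 6.26 ± 1.27 at D12 and 4.13 ± 0.972 at D16, with limits of 4.94 at D0 and 7.22 at D4. The D12 signal was at least 1.27-fold the D0 limit without scaling, with no bound above 1 under any of the 4 scalings, and none against D4, whose limit over both probes was higher than the D12 signal. Over the detected probe alone the bounds at D12 were 2.53 against D0 and 1.72 against D4, without scaling. Over both probes the unscaled difference from D0 was 7.86 ± 2.07 at D12 and 4.58 ± 1.76 at D16, and that of D12 from D4 was 5.82 ± 2.41. The difference of D12 from D0 was over 3 times its within-array error. It was not corrected for array brightness, and the unscaled median ratio of D12 over D0 for all miRNAs was 1.91. The step from D12 to D16, at -3.27 ± 2.16, was less well resolved.

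The epithelial miR-192-5p lay near its detection limits and showed no unscaled change among the later days that exceeded its error. Its signal was 4.23 ± 1.26 (D4), 4.41 ± 1.19 (D12) and 3.48 ± 0.945 (D16), each from 1 probe. The D0 limit of 5.01 over both probes was above all 3, so on this limit no fold over D0 can be given. Over the detected probe alone the bounds were 1.68 (D4), 1.76 (D12) and 1.39 (D16), without scaling. Over both probes the signal was 2.92 ± 1.18 at D0 and 7.44 ± 1.65 at D12, an unscaled difference of 4.52 ± 2.03. The ratio of D12 over D4 was 1.04 ± 0.420, and 1.58 with quantiles. That of D16 over D4 was 0.824 ± 0.332 unscaled, 1.55 with the 75th percentile and 2.22 with quantiles. The direction of D16 over D4 thus depended on the scaling. miR-215-5p, the miRNA with the same seed and 18 of 21 identical positions, was not detected on any day.

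**Figure D3:**
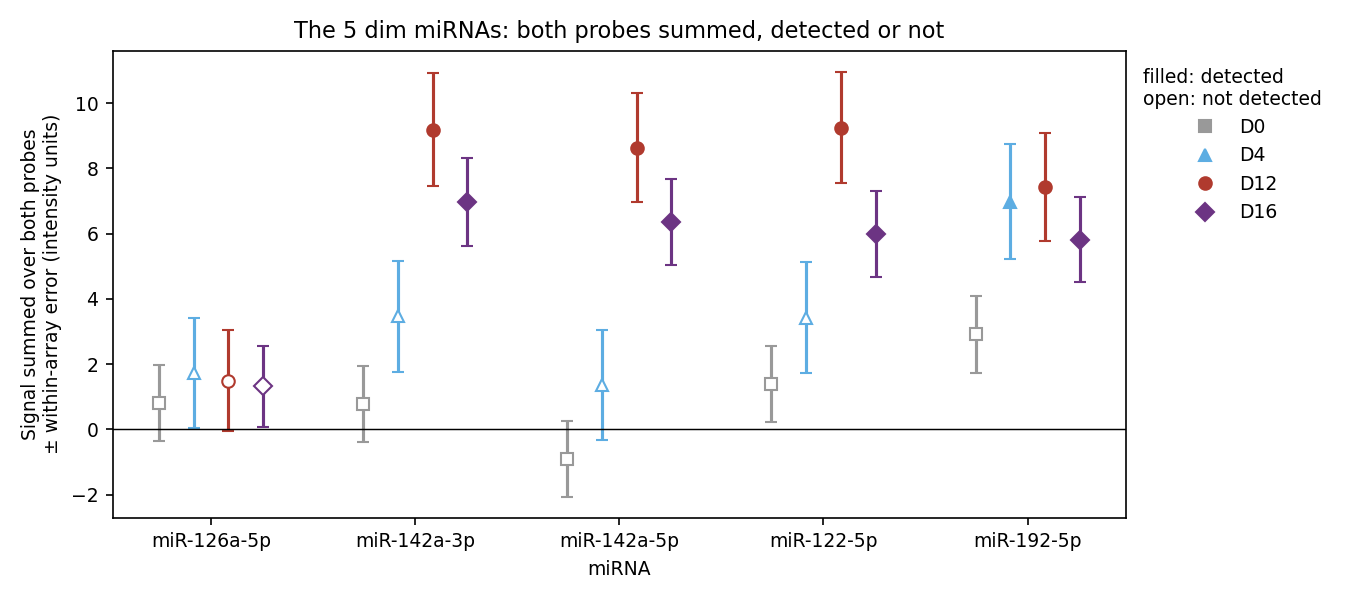
Signal summed over both probes (intensity units, linear axis) with its within-array error for the 5 dim miRNAs at D0, D4, D12 and D16, filled where detected. miR-142a-3p, miR-142a-5p and miR-122-5p are highest at D12 (9.19, 8.63 and 9.25), miR-126a-5p stays between 0.803 and 1.73, and miR-192-5p lies at 2.92 at D0 without being detected.

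The counts of the 7 miRNAs were set beside those of the whole array. All 6 miRNAs detected at D12 were missing at D0, as were 26.8% of the 406 miRNAs detected at D12. A ratio of D12 over D0 above 2, bounds included, was reached by 2 of the 6, miR-223-3p and miR-126a-3p, and by 44.8% of the 406. The same 2 passed with the 75th percentile, quantile normalization and normexp, where 38, 51 and 47 of all miRNAs did, so how the 2 of 6 compare with the array depended on the processing. The same 2 of 6 passed 2 from D4 to D12, where 4.68% of the 406 did. Here it was 1 of the 6 after normexp correction and 3 when the limit at D4 was taken over only the probes detected at D12, which added miR-142a-3p at a bound of 2.02. Over all miRNAs 3 and 10 passed under these settings, against 19. From D12 to D16, 0 of the 6 fell below 0.5, against 7.28% of 371 miRNAs. The members were chosen with earlier results of these data known, so none of these counts is an independent comparison with the array.

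The arrays were not scaled to each other, and scaling moved all ratios. The median of all miRNAs detected on both days went from 1.91 to 0.581 for D12 over D0 when the 75th percentile was used, from 0.865 to 1.12 for D12 over D4, and from 0.703 to 1.02 for D16 over D12. The bounds of miR-223-3p and miR-126a-3p at D12 over D0 stayed above 2. Of the bounds of both miR-142a arms and miR-122-5p, only that of miR-142a-5p with the spike-in RNAs stayed above 1 under scaling, at 1.02. The bounds at D4 over D0 did not hold, since neither miR-223-3p nor miR-126a-3p had a bound above 1 with the 75th percentile, where the median of all miRNAs went from 2.47 to 0.579. Whether these signals were higher at D4 than at D0 therefore depended on the scaling. With the 75th percentile the ratios of miR-223-3p and miR-126a-3p for D12 over D4 were 5.34 and 5.23. miR-126a-3p was above 1 and miR-223-3p below 1 for D16 over D12 without scaling and in all 8 alternatives, the latter only just, at 0.994, with the 75th percentile. For both miR-142a arms and miR-192-5p the ratio of D16 over D12 turned from below to above 1 with the 75th percentile (1.05, 1.07 and 1.15), and for miR-122-5p it did so only with quantile normalization (1.20).

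Other miRNAs known from the same cell types were looked up by list. Of 10 further leukocyte miRNAs 1, 2, 3 and 2 were detected at D0, D4, D12 and D16, shares close to the 17.5%, 22.6%, 21.6% and 20.2% of all miRNAs. miR-342-3p was detected on all 4 days, with 2.64, 17.98, 12.97 and 10.01, and its ratio of D12 over D4 was 0.721. miR-155-5p, an miRNA of activated immune cells, was detected only at D4, at 33.9 ± 3.22. miR-181a-5p (4.28 at D12 and 3.55 at D16) and miR-181b-5p (4.19 at D12) were dim, and miR-150-5p, miR-146a-5p and miR-223-5p, the other arm of miR-223, were not detected on any day. The rise of miR-223-3p from D4 to D12 was not seen in miR-342-3p, the only further leukocyte miRNA detected on both days.

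For liver and epithelium 0 of 14 further miRNAs were detected on any of the 4 days, including miR-122-3p, the miR-200 family and miR-194-5p, whose gene lies in a cluster with that of miR-192. With the miR-126b arms at 0 of 2, the endothelial and liver names rest here on miR-126a-3p, miR-122-5p and miR-192-5p alone, and the files give no basis for assigning the RNA to those cell types. A comparison list of neuron and muscle miRNAs was also at 0 of 9 on each day. Among miRNAs of mesenchymal cells, 7, 9, 9 and 9 of 11 were detected, with a median ratio of 1.01 from D4 to D12 and of 0.684 from D12 to D16. None of these 9 passed 2 from D4 to D12, and miR-21a-5p fell below 0.5, at 0.434.

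**Figure D4:**
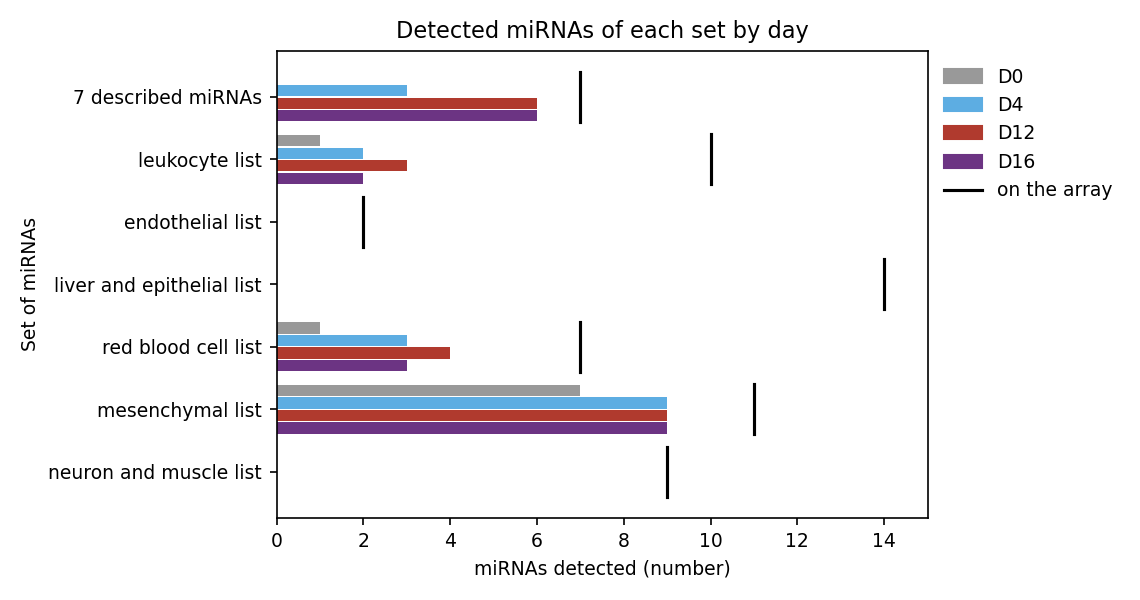
Number of miRNAs detected at D0, D4, D12 and D16 (bars) in the 7 described miRNAs and in 6 lists, with a black line at the number on the array. The described miRNAs go from 0 to 6 of 7, the liver and epithelial list stays at 0 of 14 and the mesenchymal list is at 7 of 11 already at D0.

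Some red blood cell miRNAs had ratios of D12 over D4 like those of miR-223-3p and miR-126a-3p. Of 7 red blood cell miRNAs on the array, 1, 3, 4 and 3 were detected at D0, D4, D12 and D16. Their summed signal was 9.40, 468.2, 2528 and 1649, which was 0.0740%, 1.20%, 8.16% and 7.54% of the array signal. The largest signal of the list was that of miR-451a, with 9.40, 442.6, 2400 and 1559. miR-486a-3p, miR-486b-3p and miR-451b were not detected on any day. The 5 highest ratios of D12 over D4 among the 374 miRNAs belonged, in this order, to miR-451a (5.42 ± 0.583), miR-144-3p (5.01 ± 0.645), miR-223-3p, miR-486a-5p (4.07 ± 1.29) and miR-126a-3p. They were singled out after the values were seen. The 3 red blood cell miRNAs and the 2 described here thus filled the top of the order, with neighbouring ratios that do not differ beyond their errors. From D12 to D16 the median of the 3 red blood cell miRNAs was 0.650, close to miR-223-3p and below miR-126a-3p. The part of red blood cell miRNAs in the signals of the 7 miRNAs was not tested.

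By distance between the log2 ratios of D12 over D4 and D16 over D12, over 3 arrays and 347 candidates, the miRNAs nearest to miR-223-3p were miR-486a-5p (0.12), miR-101a-3p (0.25) and miR-542-3p (0.28). Those nearest to miR-126a-3p were farther away, at 0.59 for miR-101a-3p, 0.67 for miR-144-3p and 0.69 for miR-193a-3p. All of these were not detected at D0. miR-192-5p lay closest to miR-23b-3p (0.03), miR-22-3p (0.05) and miR-103-3p (0.06), each of which was detected at D0. On this measure miR-192-5p had the pattern of miRNAs near the centre of the array, although its large error leaves that place uncertain.

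The serum was part of the medium on all of the days, and an array of medium without cells was not analysed here. RNA of serum and RNA released by the cells cannot be told apart by these 4 arrays, and the part of serum RNA in the signals of the 7 miRNAs was not tested. miR-223-3p and miR-126a-3p were not detected at D0, at limits of 4.95 and 4.91. With the 75th percentile neither had a bound above 1 for D4 over D0. From D4 to D12 their ratios were 4.77 and 4.67 times the median ratio of all miRNAs detected on both days, and 2.14 and 1.92 times after normexp correction. The paper reported that the amount of exosome fraction differed between days and was largest at D0. The part of that amount in these ratios was not tested.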

How the data were processed

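The authors hybridised Cy3-labelled RNA of the exosome fraction to 1 mouse miRNA array per day, from pooled cultures (the methods and the labels differ on how many were pooled). They deposited the output of Agilent Feature Extraction 11.0 as intensity values, without scaling between arrays. The software subtracted a fitted background surface, whose mean was 50.5, 57.1, 55.8 and 55.6 at D0, D4, D12 and D16, while the median local background at the negative control spots was 35 at D0 and 36 later. Signals were multiplied by an effective spot size, a default of 0.6 at D0 and D16 and estimated as 0.780 at D4 and 0.760 at D12. The median variation between replicate spots was 21.1% at D0 and 7.19%, 7.78% and 8.07% on the later arrays, and no spot was saturated.

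The rule of detection, recomputed from the probes, matched the flags of the software for all 1881 miRNAs of each array. Ratios are unscaled. The study's text names division by the D0 signal, and any scaling behind its own ratios is not given in the sources used here, so the ratios need not follow its procedure. Where a miRNA was not detected, the ratio is a lower bound over 3 times the error summed over its probes, or over the lowest detected signal of the array if higher. No bound at or below 1 is given as a fold. Ratio errors combine the 2 within-array errors. With 1 array per day no test was made.

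Named miRNAs are the 7, detected miRNAs of 6 cell type lists (at most 6 per list), miRNAs sharing a seed, and the 3 nearest in pattern to each member detected at D4, D12 and D16. Beyond this rule the text names some list miRNAs that were not detected, chosen after their values were seen. Neighbours in D12 brightness, also planned, are left out because brightness of different probes does not order abundance. The members and lists were chosen with earlier results of these data known.

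Alternatives were scaling to a percentile (the 75th or the 90th), to quantiles or to 4 spike-in RNAs, only probes detected on both arrays (where a miRNA was not detected on the earlier one, the limit over the probes detected on the later), spots on the right side of the array, normexp with offset 50 on median spot signals, the lowest detected signal in place of the limit, a ratio past 2 by 2 errors, a filter on brightness and 3 other detection rules. Signals without the spot size factor, and these settings for ratios other than D12 over D0, D12 over D4 and D16 over D12, were added after seeing the data. Python 3.11.15, numpy 2.4.6, pandas 2.3.3, matplotlib 3.10.9, R 4.3.3 and limma 3.58.1 were used, and the steps were tested on simulated data.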

Additional observations from a re-analysis of the deposited data

Results flagged for a closer look

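Signals were seen in spots of miRNAs that the software did not call detected. miR-192-5p at D0 had 76.7% of its 30 spots positive and significant against background, while the 7 negative control probes of that array ran from 2% to 76% with a median of 23%. miR-142a-3p at D4 had 73.3% of its spots positive and significant, and the negative control probes ran from 3.5% to 73% with a median of 28%. Both values are above the highest control probe by less than 1 percentage point and have no replicate check.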

How the results depend on the processing

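The number of the 7 miRNAs detected at D16 was 3 instead of 6 when a probe needed 50% or more of its spots well above background. With this rule it was 0, 2 and 4 at D0, D4 and D12, and the shares of all miRNAs were 12.5%, 17.3%, 16.4% and 15.5% from D0 to D16. The number above 2-fold at D12 over D0 was 4 when the limit was taken over only the probes detected at D12 (miR-142a-3p and miR-122-5p were added) and 6 when the lowest detected D0 signal replaced the limit, against 2 otherwise. The last setting gives no true bounds, since the probes' own D0 signal can be higher, as for miR-223-3p (2.04 over both probes) and miR-192-5p (2.92) against a lowest detected signal of 1.22. The number above 2-fold at D12 over D4 was 1 after normexp correction, with 2.04 for miR-223-3p and 1.83 for miR-126a-3p, and 3 with the limit over those probes, which added miR-142a-3p at a bound of 2.02. The cause was not tested. For D16 over D12 the miR-142a arms were each below 1 in 5 of 8 alternatives, miR-192-5p in 3 and miR-122-5p in 7, and 0 members were below 0.5 at D16 over D12 in each setting. The rank of miR-126a-3p in D16 over D12 ran from 1 to 26, and the ranks in D12 over D4 from 3 to 11 for miR-223-3p and from 4 to 9 for miR-126a-3p. Counts over all miRNAs depended more on the setting. Above 2-fold at D12 over D0 were 182 without scaling, 38 with the 75th percentile, 194 with the limit over probes detected at D12 and 245 with the lowest detected signal. For D12 over D4 they were 19, with 3 after normexp, 10 with the limit over those probes and 45 after quantile normalization, and below 0.5 at D16 over D12 they were 27, with 0 after normexp. Bounds not above 1 are given as no value. For D12 over D0 this was so for miR-142a-3p and miR-122-5p under all 4 scalings and for miR-142a-5p under 3. For D4 over D0 it was so for miR-126a-3p with both percentiles and quantiles, and for miR-223-3p with the 75th percentile. The D4 over D0 check was added after seeing the data. The signals of the 4 dimmer detected miRNAs lie close to the detection limits, which limits their ratios, and 1 array per day limits all of them.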
